A study of Brassica rapa with 30 samples.

Results

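FRIGIDA was followed in Brassica rapa through its copies Bra029192 and Bra035723, chosen by ID as the 2 FRIGIDA genes among the 42186 gene rows of the count tables. Both copies had enough counts to be tested, as did 28712 of the genes in all. The RNA came from whole plants of LP08, a cultivar described as early flowering, and Chiifu, described as late flowering. Plants of both cultivars were raised in a greenhouse for 3 weeks. They were then taken without cold (NV), after a cold treatment of 1 day (V1), 20 days (V20) or 40 days (V40), or after 40 days of cold and 10 further days in warmth (V40T10). Each of the 10 groups held 3 libraries. No group had plants of the same age kept warm throughout, so every comparison with NV joins cold with time. Separate plants or cultures behind the libraries of a group are not stated, so the p-values speak only for the spread between libraries, which may be technical.

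In Arabidopsis thaliana, FRIGIDA is a scaffold protein of a complex that keeps the floral repressor FLC highly transcribed, and natural lines that lack a working FRIGIDA flower early without winter cold. Prolonged cold, or vernalization, silences FLC through VIN3 and Polycomb proteins, and the plant becomes able to flower when warmth returns. Whether the Brassica rapa copies act in the same way is not addressed by transcript counts.

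Bra029192 rose in the cold in both cultivars, by 2.03-fold in LP08 and 2.45-fold in Chiifu after 1 day, and no difference of its level between the cultivars was called with all 30 libraries. Its V1 and V20 libraries overlapped in LP08, while in Chiifu every V1 library was above those of the other treatments. Bra035723 was lower in LP08 than in Chiifu, 2.61-fold on average over the 5 treatments. No rise of Bra035723 was called on the first day of cold in either cultivar. The library labelled Chiifu NV replicate 3 held 20 counts of Bra029192 and none of Bra035723, and it decided many of the tests, which are therefore given with and without it. Leaving it out of every comparison was added after seeing the data. It also narrows the spread of both copies, so the p-values without it are not independent of that choice.

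Levels are given as CPM, read counts relative to the TMM-scaled library size. The libraries held 16926920 to 26595834 gene counts each, and a count of 0, taken as at most 3 counts, allows levels up to 0.0959 to 0.209 CPM by counting error. The FRIGIDA copies gave few reads, with 20 to 190 counts of Bra029192 and 0 to 261 counts of Bra035723 per library. The 3 libraries of Chiifu NV correlated with each other at 0.912 to 0.947 across genes, against 0.971 or more in every other group. In Chiifu NV replicate 3, 24 of the 20085 genes with at least 50 counts in both other libraries of the group had no count, Bra035723 among them. The same held for 19 and 23 genes in Chiifu NV replicates 1 and 2, and for at most 3 genes in any library of the other groups. The fit scales the variance expected at a gene's counts by a quasi-likelihood dispersion, which is not the raw spread between libraries. With Chiifu NV replicate 3 in the fit, this dispersion of Bra035723 was larger than that of 96.3% of the genes tested, and without it larger than that of 29%. For Bra029192 these shares were 41.4% and 0.762%.

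**Figure D1:**
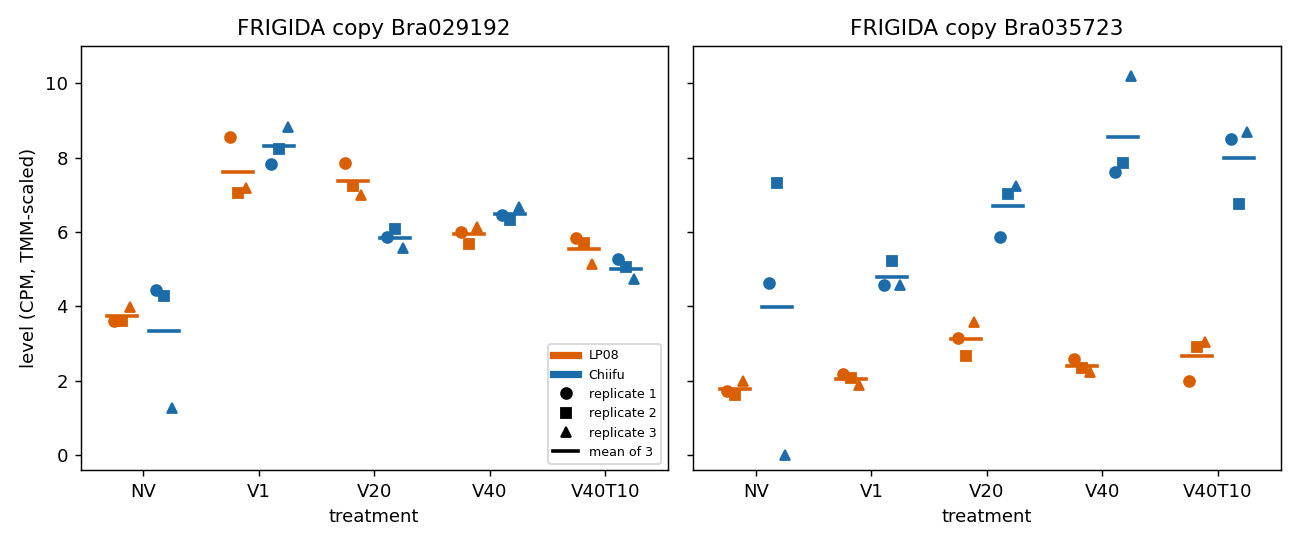
Level of each FRIGIDA copy in every library, in CPM on a linear axis, by treatment, with LP08 in orange and Chiifu in blue, symbols for the replicate number and a line at the mean of 3 libraries. Bra029192 lies between 3.61 and 8.55 CPM in LP08, Bra035723 lies below 4 CPM in every LP08 library, and Chiifu NV replicate 3 is lowest for both copies.

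Bra029192 stood at 3.61, 3.62 and 3.98 CPM in the LP08 libraries without cold, at 8.55, 7.06 and 7.19 CPM at V1, and at 7.86, 7.25 and 6.99 CPM at V20. It was at 5.99, 5.68 and 6.14 CPM at V40, and at 5.83, 5.71 and 5.13 CPM after the return to warmth. Every cold-treated LP08 library was thus above every LP08 library without cold, and the V40T10 libraries also stayed above them. How many of all genes tested separate in this way was not counted, here or for the other separations between treatments of a cultivar. The group means were 3.74 ± 0.207 at NV, 7.6 ± 0.827 at V1, 7.37 ± 0.45 at V20, 5.94 ± 0.239 at V40 and 5.56 ± 0.373 CPM at V40T10 (SD, n = 3 each).

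Bra029192 rose 2.03-fold at V1 in LP08 (log2 difference 1.02, SE 0.23, edgeR quasi-likelihood test, Benjamini-Hochberg adjusted p = 0.00081). It was 1.97-fold higher at V20 (adjusted p = 0.00124), 1.59-fold higher at V40 (adjusted p = 0.0255) and 1.49-fold higher at V40T10 (adjusted p = 0.0498), all by edgeR. The rise was called at all 4 later times, and such calls were common: 20.8, 20.1, 17.4 and 20.3% of all genes tested were called higher than NV at V1, V20, V40 and V40T10 in LP08. Chiifu NV replicate 3 is not part of these comparisons but enters the shared spread. When it was left out, the folds were 2.01, 1.97, 1.59 and 1.53. The edgeR adjusted p-values were then 4.94e-08, 8.3e-08, 2.67e-05 and 7.05e-05, and 24, 24.1, 21.9 and 26.6% of genes were called higher. With all 30 libraries the calls at V40 and V40T10 were close to the threshold. The call at V40 was lost without LP08 NV replicate 1 or 2 or LP08 V40 replicate 1 or 3 (edgeR adjusted p up to 0.0646). The call at V40T10 was lost with no filter on low counts (1.51-fold, edgeR adjusted p = 0.0557), and without any 1 of the 3 LP08 NV libraries or V40T10 replicate 1 or 2 (adjusted p up to 0.0906).

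In Chiifu, Bra029192 stood at 4.45, 4.28 and 1.28 CPM at NV, at 7.83, 8.24 and 8.83 CPM at V1, and at 5.86, 6.08 and 5.56 CPM at V20. It was at 6.45, 6.32 and 6.67 CPM at V40 and at 5.27, 5.05 and 4.73 CPM at V40T10. Here too every library of the treated groups lay above every NV library, also when replicate 3 is set aside. The means were 3.34 ± 1.79 at NV, 8.3 ± 0.504 at V1, 5.83 ± 0.264 at V20, 6.48 ± 0.176 at V40 and 5.02 ± 0.272 CPM at V40T10 (SD, n = 3 each), and the NV mean of replicates 1 and 2 alone was 4.37 CPM.

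Bra029192 rose 2.45-fold at V1 in Chiifu (log2 difference 1.29, SE 0.23, edgeR adjusted p = 4.95e-05), 1.72-fold at V20 (adjusted p = 0.00757) and 1.91-fold at V40 (adjusted p = 0.00179). At V40T10 it was 1.48-fold the NV level without a call (edgeR adjusted p = 0.0515). That difference was called without Chiifu NV replicate 1 or 2 (1.75-fold with an edgeR adjusted p of 0.0104, and 1.71-fold with one of 0.0167). The shares of all genes called higher were 22.3, 20.5, 21.3 and 19.8% at these 4 times. The rises were smaller once Chiifu NV replicate 3 was left out, 1.92-fold at V1, 1.34-fold at V20 and 1.48-fold at V40. They kept their calls, with edgeR adjusted p-values of 6.5e-07, 0.00565 and 0.000496, where 23.7, 22.4 and 22% of genes were called higher. The V40T10 level was then 1.14-fold that of NV (edgeR adjusted p = 0.262). When the spread was taken from the compared Chiifu groups alone, with replicate 3 in place, the adjusted p-values at V1, V20 and V40 were 0.0625, 0.251 and 0.169.

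The later steps were followed in the same way. At V20 against V1 the log2 difference of Bra029192 was -0.04 (SE 0.22) in LP08, and in Chiifu it was -0.51 (SE 0.22, edgeR adjusted p = 0.078). At V40 against V20 the log2 differences were -0.31 (SE 0.22) in LP08 and 0.15 (SE 0.22) in Chiifu, and at V40T10 against V40 they were -0.10 (SE 0.23) and -0.37 (SE 0.22). None of these 6 steps was called, while 34.3, 2.05 and 49.7% of genes were called in LP08 and 33.2, 0.261 and 46.7% in Chiifu at the same steps. In the fit that left out Chiifu NV replicate 3, the V20 level of Bra029192 in Chiifu was called 1.43-fold below that of V1 (edgeR adjusted p = 0.000249, with 20.9% of genes lower). The V40T10 level was then called 1.30-fold below that of V40 (adjusted p = 0.00339, with 26.7% of genes lower). The fall of Bra029192 after the return to warmth was thus called in Chiifu in that fit but not with all 30 libraries, and in LP08 it was called in neither fit.

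Bra035723 stood at 1.73, 1.63 and 2.01 CPM in LP08 without cold, at 2.18, 2.07 and 1.9 CPM at V1, and at 3.15, 2.67 and 3.57 CPM at V20. It was at 2.59, 2.34 and 2.25 CPM at V40 and at 2, 2.92 and 3.05 CPM at V40T10. The V1 and V40T10 libraries overlapped those of NV, and the V20 and V40 libraries lay above them. The means were 1.79 ± 0.2 at NV, 2.05 ± 0.14 at V1, 3.13 ± 0.448 at V20, 2.39 ± 0.176 at V40 and 2.66 ± 0.571 CPM at V40T10 (SD, n = 3 each).

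In Chiifu, Bra035723 stood at 4.64, 7.32 and 0 CPM at NV, at 4.57, 5.21 and 4.59 CPM at V1, and at 5.86, 7.02 and 7.24 CPM at V20. It was at 7.61, 7.85 and 10.2 CPM at V40 and at 8.5, 6.74 and 8.7 CPM at V40T10. The 0 of replicate 3 allows up to 0.191 CPM in that library. NV replicates 1 and 2 differ from each other by more than the V1 libraries do, and they overlap the V1, V20 and V40T10 libraries. The means were 3.99 ± 3.7 at NV, 4.79 ± 0.363 at V1, 6.71 ± 0.74 at V20, 8.57 ± 1.46 at V40 and 7.98 ± 1.08 CPM at V40T10 (SD, n = 3 each), with 5.98 CPM as the NV mean of replicates 1 and 2.

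With all 30 libraries, no change of Bra035723 over time was called in either cultivar. Against NV, the log2 differences in LP08 were 0.19 at V1, 0.80 at V20, 0.42 at V40 and 0.57 at V40T10, each with a standard error of 0.54 to 0.56. In Chiifu they were 0.23, 0.72, 1.07 and 0.97, with standard errors of 0.49 to 0.50, and the lowest edgeR adjusted p was 0.0785, at V40. For the steps V20 against V1, V40 against V20 and V40T10 against V40, the log2 differences of Bra035723 were 0.61, -0.38 and 0.15 in LP08 and 0.49, 0.35 and -0.10 in Chiifu, with edgeR adjusted p-values of 0.418 or more. Standard errors of this size leave wide intervals: the 95% interval of the log2 difference at V1 ran from -0.96 to 1.35 in LP08 and from -0.80 to 1.26 in Chiifu.

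Rises of Bra035723 were called without Chiifu NV replicate 3, namely at V20 in LP08 (1.74-fold, edgeR adjusted p = 0.00185) and at V40T10 in LP08 (1.53-fold, adjusted p = 0.0156). The rise at V40 in Chiifu was also called (1.43-fold, edgeR adjusted p = 0.0353). In these comparisons 24.1, 26.6 and 22% of genes were called higher. At V20 against V1 the copy then rose 1.54-fold in LP08 (edgeR adjusted p = 0.0131) and 1.39-fold in Chiifu (adjusted p = 0.0318), where 21.7 and 21.5% of genes were called higher. At V1 its level was 1.13-fold that of NV in LP08 and 0.811-fold in Chiifu, neither of them called (edgeR adjusted p = 0.514 and 0.212). The 95% intervals of these V1 log2 differences were -0.26 to 0.61 and -0.71 to 0.10, and in this fit the V1 rise of Bra029192 lay outside both. That holds for this fit only. With all 30 libraries the interval in LP08 ran up to 1.35. Without Chiifu NV replicate 2 the V1 log2 difference of Bra035723 in Chiifu was 0.98, not called (edgeR adjusted p = 0.131). Leaving out Chiifu NV replicate 2 in place of replicate 3 also gave calls in Chiifu. The log2 differences were 1.47 at V20, 1.82 at V40 and 1.71 at V40T10 (edgeR adjusted p = 0.0276, 0.00742 and 0.0118). No share of all genes is given for that fit. The size of the change from NV in Chiifu thus depended on which NV library was used.

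**Figure D2:**
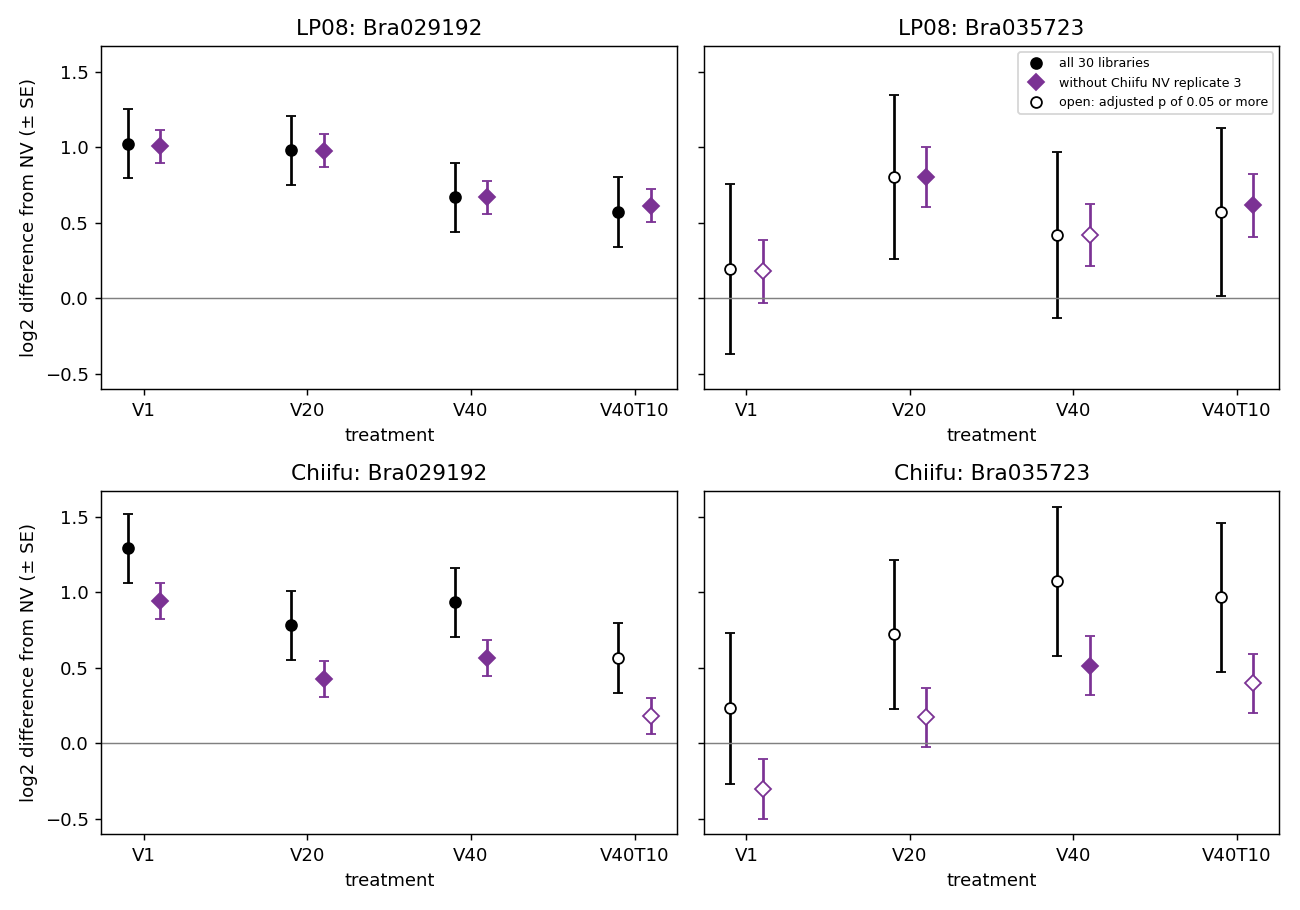
Log2 difference of each treatment from NV with its standard error, for LP08 in the upper and Chiifu in the lower panels, from all 30 libraries (black circles) and without Chiifu NV replicate 3 (purple diamonds), filled where the adjusted p was below 0.05. For Bra029192 the V1 and V20 differences are within their errors of each other in LP08, the V1 difference is the highest in Chiifu, and the differences of both copies in Chiifu are lower when replicate 3 is left out.

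Over all 5 treatments at once, Bra029192 changed in LP08 (F = 6.19, edgeR adjusted p = 0.00239) and in Chiifu (F = 8.64, adjusted p = 0.000352). Such a change was called for 75.2% of genes in LP08 and 78% in Chiifu. Bra035723 was not called in either (edgeR adjusted p = 0.65 and 0.193). Left without Chiifu NV replicate 3, the fit called the change of Bra035723 in LP08 (F = 5.22, edgeR adjusted p = 0.00519) and in Chiifu (F = 6.60, adjusted p = 0.00164), with 82.8 and 81.2% of genes called.

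The cultivars differed in Bra035723. All LP08 libraries lay between 1.63 and 3.57 CPM with a median of 2.25 CPM, and the Chiifu libraries between 0 and 10.2 CPM with a median of 7.02 CPM (15 libraries each). At V1, V20, V40 and V40T10 every LP08 library was below every Chiifu library, and at NV the groups overlapped only through Chiifu replicate 3. Complete separation with LP08 lower was frequent among all genes tested, at 27.8, 30.3, 29.4 and 37.9% for these 4 treatments, and 13.7% showed it at all 4.

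Averaged over the 5 treatments, Bra035723 was 2.61-fold lower in LP08 (log2 difference -1.38, SE 0.23, edgeR adjusted p = 9.51e-06), where 35% of genes were called lower. Treatment by treatment, the log2 differences of LP08 from Chiifu were -1.18 at NV, -1.22 at V1, -1.10 at V20, -1.84 at V40 and -1.58 at V40T10, with standard errors of 0.50 to 0.54. Those at V40 and V40T10 were called (edgeR adjusted p = 0.00537 and 0.0108), and those at NV, V1 and V20 were not (adjusted p = 0.0748, 0.065 and 0.081). The shares of all genes called lower in LP08 were 24.3, 21.4, 21.9, 22.2 and 31.8% in the order of the treatments.

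Bra035723 was called lower in LP08 at all 5 treatments without Chiifu NV replicate 3, by 3.35-fold at NV, 2.41-fold at V1, 2.17-fold at V20, 3.58-fold at V40 and 2.88-fold at V40T10. The largest edgeR adjusted p was 1.54e-05, and 23.3, 26.1, 26.3, 25.6 and 33.1% of genes were called lower. The choice of this fit after seeing the data bears on its p-values. Of these 5 differences, that at NV moved most when single libraries were left out: without Chiifu NV replicate 2 it was -0.44 on the log2 scale (edgeR adjusted p = 0.534), and limma voom gave 0.45 (adjusted p = 0.806). The mean log2 difference of the 5 treatments without Chiifu NV replicate 3 was -1.50 (SE 0.09, edgeR adjusted p = 7.08e-14, with 36.4% of genes lower). The mean difference stayed called without any single library, between -1.50 and -1.24. Since the plants were taken whole, less transcript per cell and a smaller share of cells that transcribe the gene cannot be told apart. Alignments at several places, which count for no gene, were 3.82 to 7.29% in LP08 and 2.67 to 6.53% in Chiifu, and their part in the difference was not tested. The genome build was not given, and whether reads of the cultivars align equally well to this copy was not tested either.

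**Figure D3:**
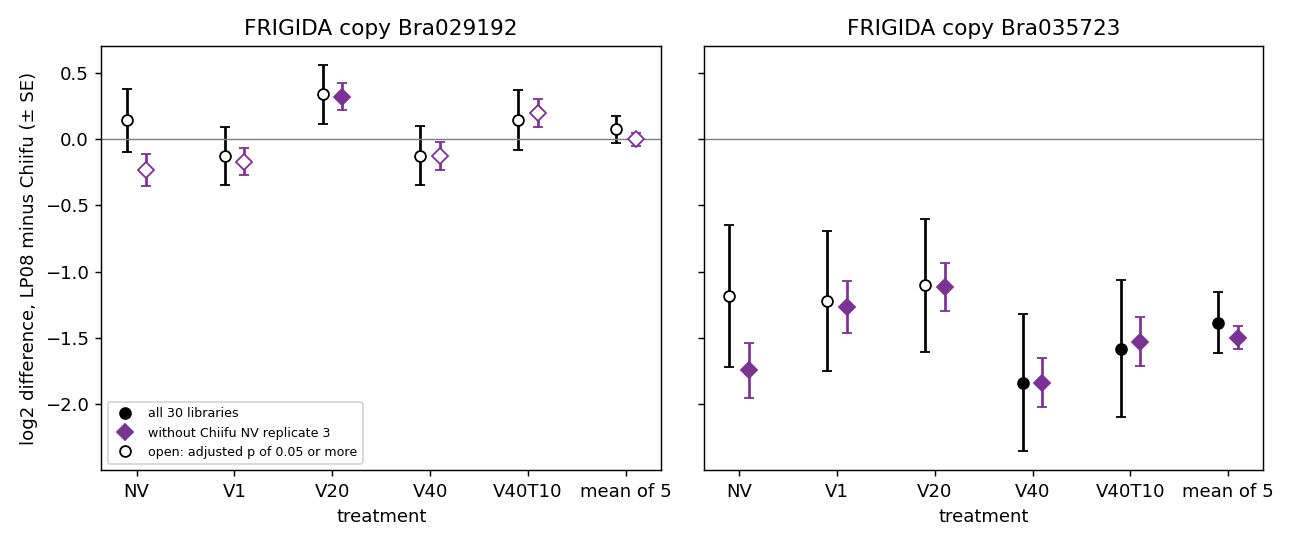
Log2 difference of LP08 minus Chiifu with its standard error, at each treatment and as the mean of 5, from all 30 libraries (black circles) and without Chiifu NV replicate 3 (purple diamonds), filled where the adjusted p was below 0.05. Bra029192 stays within 0.4 of 0 on the log2 scale, while Bra035723 lies below -1 at every treatment in both fits.

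Bra029192 showed no called difference between the cultivars with all 30 libraries. The LP08 libraries ranged from 3.61 to 8.55 CPM (median 5.99) and the Chiifu libraries from 1.28 to 8.83 CPM (median 5.86). Averaged over treatments, LP08 minus Chiifu was 0.07 on the log2 scale (95% interval -0.13 to 0.28, edgeR adjusted p = 0.527). The groups overlapped at NV, V1 and V40T10. At V20 all LP08 libraries were above those of Chiifu, with 6.99 to 7.86 CPM in LP08 and 5.56 to 6.08 CPM in Chiifu, and at V40 all were below, with 5.68 to 6.14 CPM in LP08 and 6.32 to 6.67 CPM in Chiifu. Such separation was as frequent among all genes tested, at 29.5% with LP08 above at V20 and 29.4% with LP08 below at V40. Neither difference was called (log2 difference 0.34 at V20 and -0.13 at V40, edgeR adjusted p = 0.231 and 0.682). The V20 difference, 1.25-fold, was called without Chiifu NV replicate 3 (edgeR adjusted p = 0.0118, with 24% of genes higher).

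The responses of the copies to treatment were also compared between the cultivars. With all 30 libraries no difference of response was called: the edgeR adjusted p for any difference of the courses was 0.616 for Bra029192 and 0.877 for Bra035723, while 43% of genes were called. The single responses from NV to V1, V20, V40 and V40T10 and from V40 to V40T10 gave adjusted p-values of 0.581 or more, where 9.22, 10.3, 12.3, 27.2 and 30.4% of genes were called. The course of Bra029192 differed once Chiifu NV replicate 3 was left out (F = 5.25, edgeR adjusted p = 0.00964, with 51.6% of genes called), and that of Bra035723 was not called (adjusted p = 0.0968). In that fit the V20 response of Bra029192 was 1.47-fold greater in LP08 than in Chiifu (log2 difference 0.55, SE 0.16, edgeR adjusted p = 0.0225, with 6.86% of genes called in this direction).

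Ordered by group means, Bra029192 was highest in Chiifu V1, followed by LP08 V1, LP08 V20, Chiifu V40, LP08 V40, Chiifu V20, LP08 V40T10, Chiifu V40T10, LP08 NV and Chiifu NV. Of the 9 neighbours in this order, LP08 V20 and Chiifu V40, Chiifu V40 and LP08 V40, and Chiifu V40T10 and LP08 NV did not overlap in their libraries, and the other 6 pairs did. At V40, 29.4% of all genes tested had every LP08 library below every Chiifu library. For the other pairs, here and in the order of Bra035723, such shares were not counted. For Bra035723 the 5 Chiifu groups came first, as V40, V40T10, V20, V1 and NV, and then LP08 V20, V40T10, V40, V1 and NV. In this order only Chiifu V20 and Chiifu V1, and LP08 V40 and LP08 V1, were separate from their neighbour. Both orders depend on Chiifu NV replicate 3: without it the Chiifu NV mean of Bra029192, 4.37 CPM, lies above that of LP08 NV, and the Chiifu NV mean of Bra035723, 5.98 CPM, lies above that of Chiifu V1.

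The balance of the copies was followed by the ratio of Bra035723 to Bra029192 counts within each library, which needs no library scaling. Gene lengths are not used here, so the ratio is read only as a difference between groups. In LP08 it was 0.478, 0.449 and 0.506 at NV, 0.255, 0.294 and 0.265 at V1, and 0.4, 0.368 and 0.51 at V20. It was 0.432, 0.413 and 0.366 at V40 and 0.344, 0.512 and 0.594 at V40T10. The V1 ratios were the lowest in LP08 and overlapped no other LP08 group.

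In Chiifu the ratio was 1.04, 1.71 and 0 at NV, 0.584, 0.632 and 0.519 at V1, and 1, 1.15 and 1.3 at V20. It was 1.18, 1.24 and 1.54 at V40 and 1.61, 1.34 and 1.84 at V40T10. The V1 ratios of Chiifu were likewise below all libraries of V20, V40, V40T10 and NV, except NV replicate 3. Without that library every Chiifu ratio at V20, V40, V40T10 and NV lay above every LP08 ratio, and the V1 ratios of Chiifu lay above those of LP08 V1. How many other gene pairs separate in this way, between cultivars or between treatments, was not counted.

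Averaged over the treatments, the log2 ratio of the copies was lower in LP08 than in Chiifu by 1.10, or 2.14-fold (two-sided permutation test of cultivar labels within treatments, 100000 resamples, p = 0.00519). Leaving out Chiifu NV replicate 3 gave a log2 difference of -1.48, or 2.79-fold lower in LP08, with p = 1e-05, the smallest p these permutations can give. With all 30 libraries, the mean log2 difference between the cultivars was -1.38 for Bra035723 and 0.07 for Bra029192. The ratio thus largely repeats the difference of Bra035723. On that mean 34.2% of all genes tested were called higher and 35% lower in LP08. How often the ratio or sum of other gene pairs differs was not counted. The summed level of both copies was 5.25 to 11 CPM in LP08 and 1.28 to 16.9 CPM in Chiifu. The sum was 1.34-fold lower in LP08 (log2 difference -0.42, permutation test p = 0.0224), and 1.53-fold lower without Chiifu NV replicate 3 (permutation p = 1e-05, again the smallest possible). The difference of the sum lost its call without Chiifu NV replicate 1 or 2 (permutation p = 0.145 and 0.165) and without LP08 NV replicate 1, 2 or 3 (permutation p = 0.0646, 0.0662 and 0.0524).

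**Figure D4:**
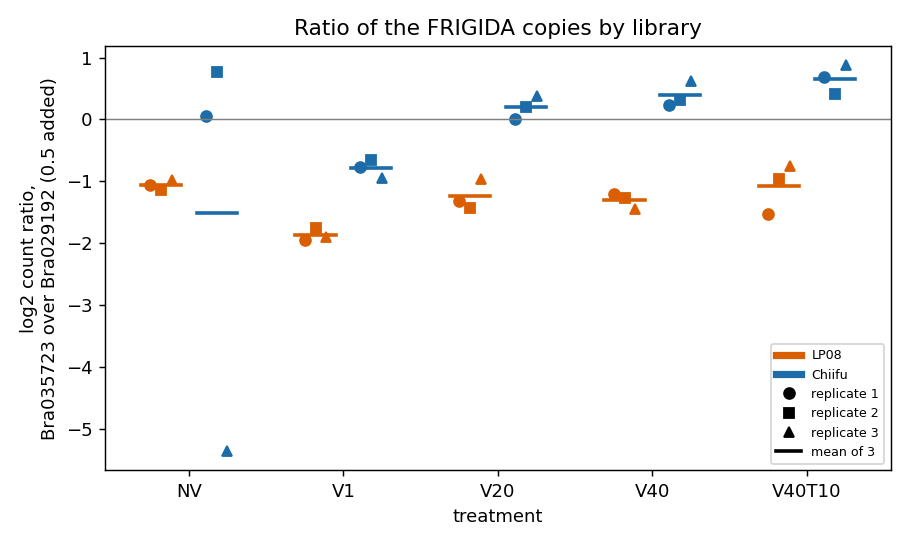
Log2 ratio of Bra035723 to Bra029192 counts in every library, with 0.5 added to each count, by treatment, LP08 in orange and Chiifu in blue, with a line at the mean of 3. The ratio is lowest at V1 in LP08 and, apart from NV replicate 3 at -5.36, also in Chiifu, and the LP08 libraries lie below those of Chiifu in each treatment except for that library.

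Among the other genes of the pathway, VIN3 (Bra020445), a plant homeodomain protein that accumulates in long cold in Arabidopsis, had its highest means at V20 and V40. It had no count in any LP08 NV library and averaged 0.514 ± 0.271 CPM at V1, 12.7 ± 1.82 at V20, 17.6 ± 6.71 at V40 and 0.661 ± 0.0907 CPM at V40T10 in LP08. In Chiifu the means were 7.29 ± 1.32, 9.59 ± 0.41, 18.4 ± 3.12, 25.7 ± 4.1 and 6.52 ± 1.11 CPM from NV to V40T10 (SD, n = 3 each). GIGANTEA (Bra024536) is a clock-regulated gene that promotes flowering under long days in Arabidopsis. It was above its NV mean at V1, V20 and V40, as Bra029192 was. The V40T10 mean of GIGANTEA was below that of NV, a difference called in neither cultivar (edgeR adjusted p = 0.123 in LP08 and 0.767 in Chiifu). Its means were 90 ± 6.27 at NV, 201 ± 37.9 at V1, 276 ± 35.8 at V20, 224 ± 33.6 at V40 and 59.8 ± 2.81 CPM at V40T10 in LP08 (SD, n = 3 each). In Chiifu they were 48.2 ± 33.2, 220 ± 10.8, 223 ± 35.6, 283 ± 15.9 and 44.1 ± 2.76 CPM. GIGANTEA was also lowest in Chiifu NV replicate 3, with 14 CPM there against 80.3 and 50.2 CPM in replicates 1 and 2.

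These genes belong to a list of 11 flowering pathway IDs, of which the other 9 carry no gene name in the sources used here and are given as counts. At V40 against NV, 7 of the 11 were called higher and 4 lower in LP08, and 5 were higher and 4 lower in Chiifu. Of all genes tested, 17.4% were called higher and 17.9% lower in LP08 in this comparison, and 21.3% higher and 24.6% lower in Chiifu. The median log2 difference of the list at V40 was 3.08 in LP08 and 0.06 in Chiifu, against 0 and -0.04 for all genes tested. As the list holds genes called in both directions in each cultivar, its median does not describe a shift of the list as a whole. The list was also chosen with earlier results of these data known. Averaged over treatments, 7 of the 11 were called higher in LP08 than in Chiifu and 2 lower, where 34.2% of all genes tested were called higher and 35% lower.

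By the root mean square difference of their log2 courses over the 10 group means, the genes most like Bra029192 among 24470 compared were Bra026959 (0.114) and Bra036700 (0.14), where the median gene had 0.694. Bra026959 averaged 7.75 ± 0.32 CPM at NV and 14.7 ± 0.979 CPM at V1 in LP08, and 6.17 ± 2.95 and 13.9 ± 1.82 CPM in Chiifu (SD, n = 3 each). The genes most like Bra035723 were Bra012799 (0.308) and Bra003755 (0.323), against a median of 1.02. Bra012799 averaged 4.81 ± 0.6 CPM in LP08 and 9.5 ± 0.666 CPM in Chiifu at V40. The FRIGIDA copies were 0.778 from each other by this measure. That placed Bra035723 at rank 14447 of 24470 in likeness to Bra029192, and Bra029192 at rank 2969 in likeness to Bra035723. All these distances and ranks use group means that include Chiifu NV replicate 3, and they were not taken again without it. That library lowered the Chiifu NV mean of Bra035723 from 5.98 to 3.99 CPM.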

How the data were processed

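RNA was read from whole plants in 30 libraries. Per the labels' protocols, a TruSeq Stranded mRNA kit was used, with sequencing on NovaSeq. Tools listed in the submitters' processing notes, with no version, are FastQC, TopHat2, HTSeq and edgeR. Genome build, annotation and strand setting were not given in the sources used, so reads of near-identical, overlapping or antisense genes may be split or lost. The authors deposited raw counts per gene, with 5 summary rows of unassigned reads, which were left out of all tests and of the library sizes. The row for reads on no gene held 6.91 to 11.6%.

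The members and lists were chosen with earlier results of these data known. Both FRIGIDA IDs and the list of 11 pathway IDs were looked up in a RefSeq table of 51589 genes, where 0 matched. Members were named by ID, and the 2 genes nearest in course per member by the smallest root mean square difference, among genes of at least 1 CPM. No library pair in a group was a duplicate (chi-square per degree of freedom 7.01 to 127).

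Counts were tested with edgeR 4.0.16 (R 4.3.3) by quasi-likelihood on all 30 libraries, 1 mean per group, TMM scaling and filterByExpr, in 28 comparisons. P-values were Benjamini-Hochberg adjusted over all genes tested in each comparison and called below 0.05. Standard errors came from the F statistic. No replicate block was used. Alternatives were DESeq2 1.42.0, its size factors in edgeR, limma 3.58.1 voom, no filter, spread of the compared groups alone, a replicate block, other pseudocounts and leaving out each library. Robust moderation, and leaving Chiifu NV replicate 3 out of every comparison, were added after seeing the data.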

Additional observations from a re-analysis of the deposited data

Results flagged for a closer look

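Between V20 and V40 the mean levels of both FRIGIDA copies changed in opposite directions in the cultivars. Each LP08 library at V40 was below the LP08 V20 mean, and each Chiifu library at V40 was above the Chiifu V20 mean, in log2 CPM. The mean change in LP08 minus that in Chiifu was -0.46 for Bra029192 and -0.71 for Bra035723. The difference was not tested, and neither copy was called for this step in either cultivar. Standard errors of the log2 changes were 0.22 for Bra029192 in both cultivars, and 0.53 in LP08 and 0.48 in Chiifu for Bra035723. The step was picked from all the treatment steps by this pattern, and the share of all genes showing it was not counted.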

How the results depend on the processing

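The comparisons gave 58 results. Of 393 values under other settings, 365 kept their direction and their side of the threshold, among them all those with DESeq2's size factors in edgeR or robust moderation. Values here are log2 differences unless named otherwise, and the cause of a change was not tested. Where only the groups being compared set the spread, Bra029192 lost its calls in Chiifu at V1, V20 and V40 against NV (1.30, 0.78 and 0.93). It gained calls for V20 against V1 and V40T10 against V40 in Chiifu (-0.53 and -0.39) and for LP08 against Chiifu at V20 (0.34). Bra035723 gained calls there for V20 against NV and against V1 in LP08 (0.81 and 0.63), V20 against V1 in Chiifu (0.47), LP08 against Chiifu at V1 and V20 (-1.26 and -1.11) and any change in LP08 (F = 4.93). With limma voom, Bra029192 lost the call at V20 against NV in Chiifu (0.90). It gained those for V20 against V1 and V40T10 against V40 in Chiifu (-0.51 and -0.37) and for LP08 against Chiifu at V20 (0.34). Voom also called Bra035723 at V40 against NV in Chiifu (2.69) and for LP08 against Chiifu at V1 and V20 (-1.22 and -1.11). It turned the uncalled difference of Bra035723 between LP08 and Chiifu at NV (0.45), its V20 response in LP08 minus Chiifu (-1.57) and the V40T10 response of Bra029192 in LP08 minus Chiifu (-0.12). DESeq2 called Bra029192 at V40T10 against NV (0.52) and at V20 against V1 (-0.52) in Chiifu, and with no filter on low counts its V40T10 call in LP08 was lost (0.59).

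Replicate numbers are shared between groups but did not pair the libraries: 135 same-numbered pairs had correlations of their deviations from -0.296 to 0.273 (median -0.014), 17 of them over 0.1, and 5 of 30 libraries correlated best with their own number. With the replicate block, Bra029192 at V40T10 against NV lost its call in LP08 (0.57) and gained it in Chiifu (0.59), and its V40T10 response in LP08 minus Chiifu turned to -0.0199. No other call changed under the block, where the permutation p was 0.017 for the copy ratio and 0.0493 for the summed level.

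Leaving out Chiifu NV replicate 3 left 36 of 58 results as they were, with 15 gaining a call, none losing one and 7 changing sign. Of 562 values without another library, 528 stayed as they were. Ranges over single libraries left out follow for the results that moved. For Bra029192 in LP08 they were 0.64 to 0.74 at V40 and 0.57 to 0.67 at V40T10 against NV, and -0.0932 to 0.0482 at V20 against V1. In Chiifu they were 0.18 to 0.81 at V40T10 against NV, -0.55 to -0.46 at V20 against V1 and -0.42 to -0.35 at V40T10 against V40. LP08 against Chiifu gave -0.23 to 0.39 at NV, 0.28 to 0.37 at V20 and -0.0018 to 0.12 for the mean. The responses of Bra029192 in LP08 minus Chiifu ranged over -0.52 to 0.0605 at V1, -0.05 to 0.55 at V20, -0.51 to 0.11 at V40 and -0.24 to 0.43 at V40T10, and F for the courses over 0.636 to 5.25. For Bra035723 in LP08 the ranges were 0.70 to 0.94 at V20 and 0.50 to 0.77 at V40T10 against NV, and 0.54 to 0.73 at V20 against V1. In Chiifu they were -0.30 to 0.98 at V1, 0.17 to 1.47 at V20, 0.51 to 1.82 at V40 and 0.40 to 1.71 at V40T10 against NV, 0.43 to 0.57 at V20 against V1 and -0.20 to 0.0429 at V40T10 against V40. LP08 against Chiifu gave -1.74 to -0.44 at NV, -1.27 to -1.16 at V1 and -1.21 to -1.01 at V20. The responses of Bra035723 in LP08 minus Chiifu ranged over -0.78 to 0.48 at V1, -0.66 to 0.63 at V20 and -1.14 to 0.22 at V40T10. F for any change of Bra035723 was 0.492 to 5.22 in LP08 and 1.36 to 6.60 in Chiifu, and the summed level in LP08 against Chiifu ranged over -0.61 to -0.31.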
